A study of Mus musculus with 8 samples.

Results

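The basement membrane is the thin sheet of matrix on which epithelial cells rest. Laminins, heterotrimers of an alpha, a beta and a gamma chain, form 1 of its networks, and type IV collagen forms the other. Nidogen and the proteoglycan perlecan bind to both networks. Laminin-332 is the laminin that hemidesmosomes of epithelia hold on to, and in the mammary gland myoepithelial cells are a main source of basement membrane. Described here are 9 genes of this sheet of the 53379 genes counted, found by matching Ensembl gene IDs to symbols in the GENCODE M21 annotation of the mouse genome (GRCm38, mm10), with 1 gene ID for each symbol. They are Lama3 and Lamb3, which encode chains of laminin-332, Lama5, Lamb1 and Lamc1, which encode chains of other laminins, Col4a1 and Col4a2, which encode the common chains of type IV collagen, Nid1 (nidogen 1) and Hspg2 (perlecan).

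The study profiled mRNA of 4 mouse mammary carcinoma cell lines of C57BL/6 background, put forward as models of the epithelial-mesenchymal transition, with 2 libraries each. The lines 687g and Epcam hi were established from tumours of MMTV-PyMT-Snail-IRES-YFP mice, and pB3 and pB2 from tumours of MMTV-PyMT mice. All 4 thus carry the polyoma middle T oncogene under the mouse mammary tumour virus promoter, which is active in mammary epithelium, and the first 2 carry a Snail reporter allele as well. All were grown as adherent monolayers in DMEM/F12 with adult bovine serum. Each line is 1 cell line, so differences between lines, mouse models and tumours cannot be told apart. Whether the 2 libraries of a line came from separate cultures is not said in the labels, so the spread behind every p-value may be technical.

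Total counts were between 12442730 and 19149916 per library, where 3 counts correspond to 0.159 to 0.222 CPM (depth-scaled counts, with totals adjusted by TMM, a trimmed mean of log ratios). The name Epcam hi held in the data: Epcam stood at 3.77 ± 0.111 CPM in 687g, 271 ± 9.60 in pB3, 1473 ± 89.9 in Epcam hi and 566 ± 18.4 in pB2 (SD, n = 2). Vim (vimentin), a mesenchymal marker, averaged 2862 CPM in 687g, 2371 in pB3, 26.9 in Epcam hi and 14.0 in pB2, and Cdh1 (E-cadherin), an epithelial one, 1.32 in 687g, 51.4 in pB3, 488 in Epcam hi and 155 in pB2. Among markers of other cell types, 0 of 7 endothelial markers reached a mean of 1 CPM in any line. Of 7 leukocyte markers, 2 did so in 687g, 1 in pB3, 1 in Epcam hi and 0 in pB2, and of 7 fibroblast markers 3 did so in 687g, 2 in pB3, 1 in Epcam hi and 2 in pB2. Their summed level was 0.269 to 0.941 CPM for endothelial, 0.741 to 36.2 for leukocyte and 2.35 to 81.2 for fibroblast markers over the 8 libraries. The libraries of 687g stood apart for the genes of interest. There, 8 of the 9 genes averaged 10 CPM or more, and all 8 were higher in replicate 1 and 6 differed over 1.5-fold, as did 17.6% of all genes at that level and 24.8% of those with at least 6 kb of exon, 74.5% of which were higher in replicate 1. In pB2, all 5 such genes were higher in replicate 2 and 3 differed over 1.5-fold, against 2.76% of all genes and 5.97% of those with at least 6 kb of exon, 28.0% of which were higher in replicate 1. In 687g and pB2, most genes with at least 6 kb of exon leaned the same way as the genes of interest. A smaller part of them differed over 1.5-fold than of the genes of interest. Results that rest on single libraries of these lines are given without them.

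Col4a1 and Col4a2 lie head to head on chromosome 8, Col4a1 on the minus strand (chr8:11198423-11312826) and Col4a2 on the plus strand (chr8:11312805-11449287, GRCm38). Their annotated first exons overlap by 22 bases, shown here on each gene's own strand because these genes had nearly the same profile over the 8 libraries. Below them are stretches of the RefSeq windows of Lamb1 and Lamb3, the beta chain genes whose levels ran apart. That of Lamb1 (chr12:31265043-31265233, plus strand) ends just before the GENCODE start of the gene. That of Lamb3 (chr1:193301744-193301992, plus strand) lies before a RefSeq start that is inside the GENCODE span of the gene, and ends where the window of the next RefSeq start begins. All come from RefSeq promoter windows (GRCm38.p6), and capitals mark GGGCGG and CCAAT or their reverse complements, CCGCCC and ATTGG.
Col4a2: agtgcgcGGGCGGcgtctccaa
Col4a1: ttggagacgCCGCCCgcgcact
Lamb1: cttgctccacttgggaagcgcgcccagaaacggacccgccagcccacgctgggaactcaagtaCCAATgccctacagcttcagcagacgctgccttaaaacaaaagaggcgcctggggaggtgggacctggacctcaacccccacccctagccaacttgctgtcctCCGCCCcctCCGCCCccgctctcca
Lamb3: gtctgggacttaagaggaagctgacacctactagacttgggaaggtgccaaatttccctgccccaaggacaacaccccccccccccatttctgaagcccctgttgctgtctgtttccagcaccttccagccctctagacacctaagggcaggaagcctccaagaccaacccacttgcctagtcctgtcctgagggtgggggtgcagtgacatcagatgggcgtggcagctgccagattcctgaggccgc

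Of the 9 genes, 7 had a RefSeq window of 300 bases (250 before the start and 50 after), Lamb3 having 2 of them. On either strand, GGGCGG was found 4 times for Lama5, 5 times for Hspg2, 3 times for Col4a2, 2 times for Lamb1, 1 time each for Col4a1 and Nid1, and 0 times in either Lamb3 window, and 35.7% of all promoter windows held it. CCAAT was found 1 time each for Col4a1, Col4a2, Lamb1 and Nid1 and not for the others, against 37.4% of all windows. The letters CAGGTG (or CACCTG), an E-box that EMT factors of the Snail and Zeb families can bind, were found 2 times for Lama5 and 2 times in the window of the later Lamb3 start, against 20.2% of all windows. TGAGTCA and TATAAA were found in none of these windows, against 5.20% and 13.6% of all windows. None of the motifs searched is contained in another, and a match is only a description of the letters.

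Lama3 and Lamb3 were highest in Epcam hi. Lama3, the alpha chain (chr18:12333819-12583013), had 1.84 and 0.672 CPM in 687g, 18.9 and 16.5 in pB3, 498 and 592 in Epcam hi, against 0.592 and 0.636 in pB2. In these bulk libraries, fewer cells with the transcript and less of it per cell cannot be told apart. The Epcam hi libraries were far above all others, the pB3 libraries in between, and 687g and pB2 at the low end, with 33 and 10 reads in 687g and 8 and 12 reads in pB2. Lama3 was lower in 687g than in Epcam hi by a log2 fold change of -8.71 ± 0.34 (SE from edgeR's quasi-likelihood test; adjusted p = 3.32e-10), and lower in pB3 than in Epcam hi at -4.95 ± 0.27 (adjusted p = 1.53e-08). Epcam hi exceeded pB2 by 9.77 ± 0.37 on the log2 scale (adjusted p = 1.74e-10), and pB3 exceeded pB2 by 4.82 ± 0.35 (adjusted p = 8.49e-08). Between 687g and pB2 the log2 fold change was 1.06 ± 0.46 (adjusted p = 0.0667), which was called without 687g replicate 2 (1.56, adjusted p = 0.00727), with DESeq2 (adjusted p = 0.0407) and with no filter on low counts (adjusted p = 0.0340). Over the alternatives tried, this adjusted p ran from 0.00727 to 0.884.

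Lamb3, the beta chain of laminin-332 (chr1:193207699-193343878), was present in all 4 lines. It had 59.9 and 54.6 CPM in 687g, 24.2 and 22.0 in pB3, 450 and 490 in Epcam hi, against 92.8 and 114 in pB2. No 2 lines overlapped, and each step of the order Epcam hi, pB2, 687g, pB3 was past the threshold. Epcam hi was above pB2 by 2.18 ± 0.18 on the log2 scale (adjusted p = 2.76e-07), 687g was below pB2 at -0.86 ± 0.18 (adjusted p = 0.00104), and 687g was above pB3 by 1.31 ± 0.18 (adjusted p = 1.09e-04). In pB2 the gene thus averaged 104 ± 15.2 CPM beside 0.614 ± 0.0311 CPM of Lama3 (SD, n = 2).

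**Figure D1:**
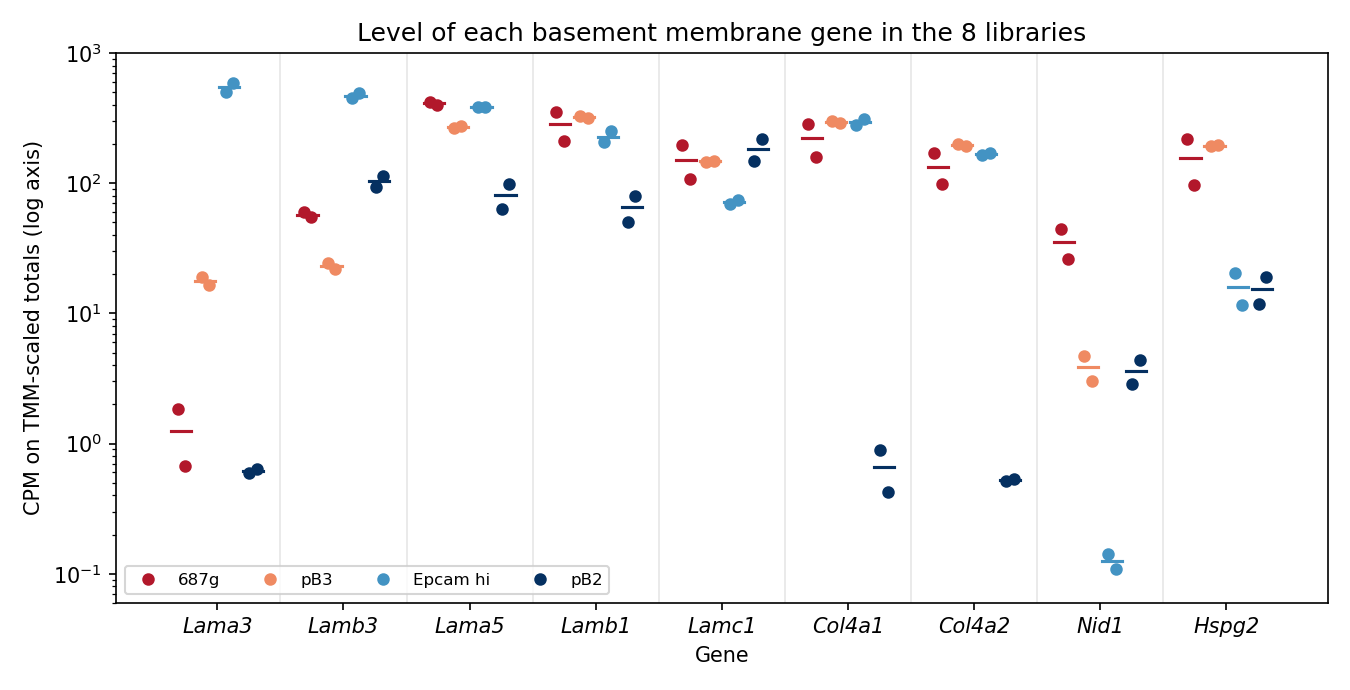
CPM on TMM-scaled totals (log axis) of the 9 genes in each of the 8 libraries (points) with the mean of each line (bars), from left to right 687g, pB3, Epcam hi and pB2. Lama3 ranges from 0.592 to 592 CPM, and Col4a1 and Col4a2 lie below 1 CPM in pB2 only.

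The chains of other laminins had narrower ranges, with pB2 the low line for Lama5 and Lamb1 and Epcam hi the low line for Lamc1. Lama5, the alpha chain of laminins widespread in adult epithelia (chr2:180176373-180225859), had 422 and 402 CPM in 687g, 266 and 274 in pB3, 386 and 382 in Epcam hi, against 63.3 and 99.0 in pB2. It was low in pB2, with log2 fold changes of 2.34 ± 0.21 in 687g, 1.73 ± 0.21 in pB3 and 2.24 ± 0.21 in Epcam hi against pB2 (adjusted p = 5.83e-07, 1.15e-05 and 9.59e-07). Among the other 3 lines the largest difference was 687g above pB3, 0.61 ± 0.20 on the log2 scale (adjusted p = 0.0400). Leaving out any 1 library of those lines ended the call: the adjusted p was 0.107 for 687g replicate 1, 0.0784 for 687g replicate 2, 0.235 for pB3 replicate 1 and 0.201 for pB3 replicate 2. Total counts in place of TMM did so too (adjusted p = 0.0603). Between pB3 and Epcam hi it was not called (-0.51 ± 0.20, adjusted p = 0.0762), but was with total counts (adjusted p = 0.0460), with DESeq2 (adjusted p = 0.0475) and in a fit of only these lines (adjusted p = 0.0208). Lamb1, the beta chain of most laminins outside laminin-332 (chr12:31265234-31329644), had 355 and 212 CPM in 687g, 326 and 316 in pB3, 205 and 250 in Epcam hi, against 50.7 and 80.1 in pB2. It too was lower in pB2 than in any other line, with log2 fold changes of 2.11 ± 0.27 in 687g, 2.29 ± 0.27 in pB3 and 1.80 ± 0.26 in Epcam hi against pB2 (adjusted p = 1.43e-05, 8.64e-06 and 6.21e-05), and 687g overlapped both pB3 and Epcam hi. Between pB3 and Epcam hi it was not called (0.49 ± 0.25, adjusted p = 0.169), but was with no filter on low counts (adjusted p = 0.0491) and in a fit of only these lines (adjusted p = 0.0416).

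Lamc1, the gamma chain of most laminins (chr1:153218922-153332786), was the steadiest of the 9 genes, with 2.57-fold between its highest and lowest line means. It had 195 and 108 CPM in 687g, 146 and 148 in pB3, 68.6 and 74.1 in Epcam hi, against 149 and 218 in pB2. The low line was Epcam hi, where Lama3 and Lamb3 were highest. Against Epcam hi, 687g was higher by 1.09 ± 0.26 on the log2 scale (adjusted p = 0.00435) and pB3 by 1.04 ± 0.26 (adjusted p = 0.00713), and Epcam hi was lower than pB2 at -1.36 ± 0.26 (adjusted p = 5.59e-04). The first of these calls ended without 687g replicate 1 (0.62, adjusted p = 0.0583). Neither 687g nor pB3 was called against pB2, at -0.28 ± 0.25 and -0.32 ± 0.25 (adjusted p = 0.383 and 0.337), though 687g was called lower without its replicate 1 (-0.76, adjusted p = 0.0216).

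Set per kilobase of exon, so that chains can be compared with one another, the mixture of alpha and beta chain transcripts differed from line to line. Of the alpha chain reads per kb, Lama3 took 0.318 ± 0.200% in 687g, 6.48 ± 0.722% in pB3, 59.9 ± 3.13% in Epcam hi and 0.471 ± 0.0779% in pB2 (SD, n = 2). Lama5 took 99.4 ± 0.264% in 687g, 93.4 ± 0.689% in pB3, 40.0 ± 3.13% in Epcam hi and 57.1 ± 5.67% in pB2. In pB2 the rest was Lama4, the alpha chain of endothelial and mesenchymal laminins, at 42.4 ± 5.54% of alpha reads per kb and 62.3 ± 5.32 CPM, where 687g had 0.129 CPM, pB3 had 0.232 CPM and Epcam hi had 0.0821 CPM. The summed level of the 7 fibroblast markers was also highest in pB2, at 60.4 to 81.2 CPM, though only 2 of them reached a mean of 1 CPM there and Col1a2 and Lum stood at 0. It was 15.8 to 21.2 CPM in 687g, 15.2 to 17.8 in pB3 and 2.35 to 2.81 in Epcam hi. Single markers differed: of 3 tested in 687g against pB2, 1 was higher and 2 lower in 687g. Pdgfrb averaged 10.8 CPM in 687g, 1.42 in pB3, 0.0352 in Epcam hi and 0.631 in pB2. Summed over 4 mesenchymal markers, pB2 was the lowest line, at 184 to 273 CPM. The part of these markers in the Lama4 level was not tested. With the longest transcript as the length, Lama4 rather than Lama5 led in pB2, at 59.4%. That length moved 22 laminin chain shares, gamma chains included, by more than their SD and left 22 within it. The Lama4 share in pB2 moved most. For Lama3 the 2 lengths were close, at 10745 and 10548 bases, and its shares with a shorter transcript were not computed.

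Of the beta chain reads per kb, Lamb3 took 21.7 ± 4.35% in 687g, 8.74 ± 0.426% in pB3, 73.8 ± 0.887% in Epcam hi and 65.3 ± 2.87% in pB2. Lamb1 took 68.9 ± 6.69% in 687g, 81.0 ± 0.201% in pB3, 23.8 ± 1.56% in Epcam hi and 27.1 ± 3.56% in pB2. The ratio of Lamb3 to Lamb1 per kb was 0.253 and 0.386 in 687g, 0.111 and 0.104 in pB3, 3.28 and 2.94 in Epcam hi, against 2.74 and 2.14 in pB2. Lamb1 thus outnumbered Lamb3 in all libraries of 687g and pB3, and Lamb3 outnumbered Lamb1 in all libraries of Epcam hi and pB2. Epcam hi alone of the 4 lines was led by Lama3 among alpha chains and by Lamb3 among beta chains. These shares are of transcripts and say nothing of which trimers were assembled.

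**Figure D2:**
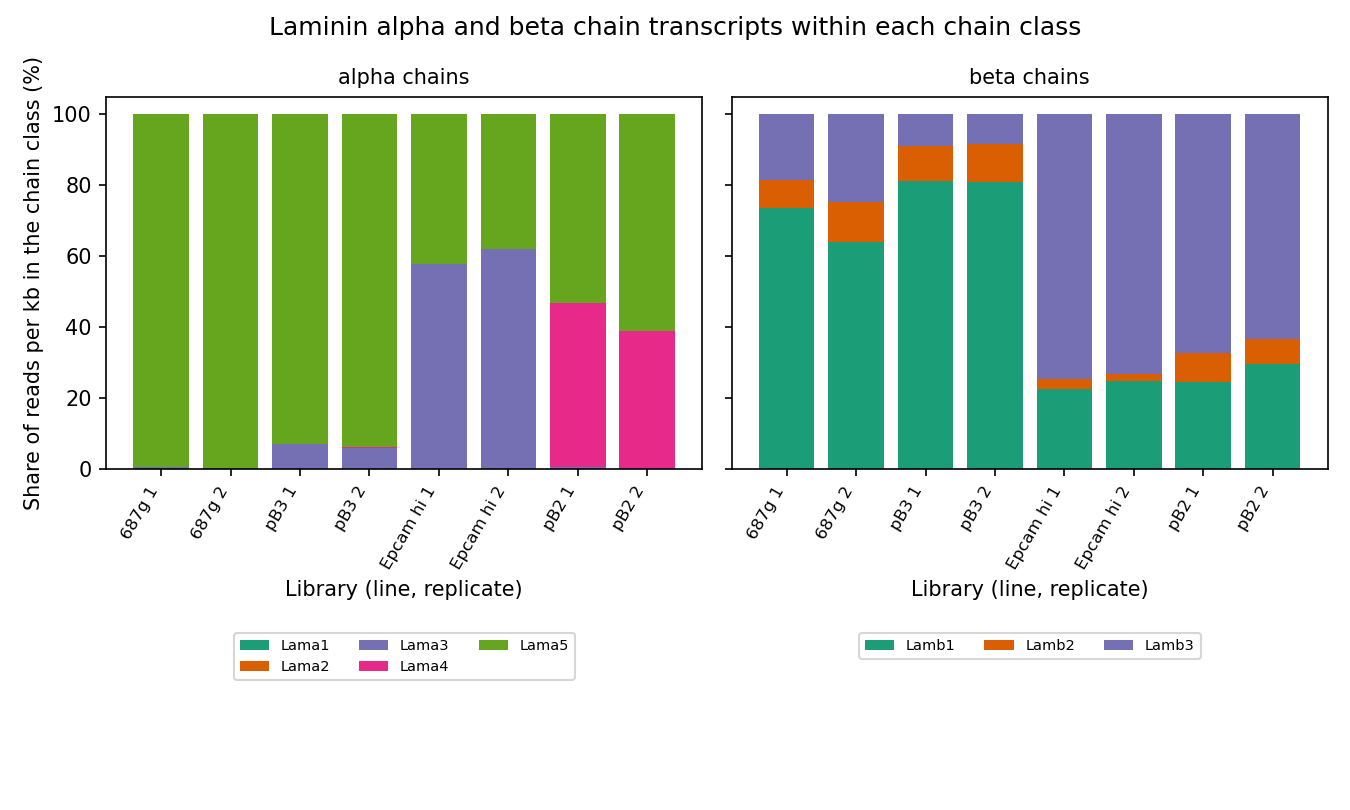
Share of each alpha and beta laminin chain in the reads per kb of union exon length of its chain class (percent, stacked bars), for each of the 8 libraries. Lama3 takes 59.9% of alpha reads per kb in Epcam hi, and Lama4 takes 42.4% in pB2.

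Type IV collagen was the gene pair with a nearly all-or-none difference. Its common protomer holds 2 alpha 1 chains, encoded by Col4a1, and 1 alpha 2 chain, encoded by Col4a2. Col4a1 had 285 and 158 CPM in 687g, 299 and 289 in pB3, 280 and 314 in Epcam hi, against 0.889 and 0.424 in pB2. Col4a2 had 169 and 99.3 CPM in 687g, 201 and 194 in pB3, 164 and 172 in Epcam hi, against 0.518 and 0.530 in pB2. The pB2 values rest on 12 and 8 reads of Col4a1 and 7 and 10 reads of Col4a2.

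Per scaled total, Col4a1 reads were 368-fold (exact 95% counting interval 238 to 602) as frequent in 687g, 476-fold (308 to 779) in pB3 and 484-fold (313 to 792) in Epcam hi as in pB2. Col4a2 reads were 262-fold (163 to 450) as frequent in 687g, 377-fold (235 to 647) in pB3 and 321-fold (200.2 to 551) in Epcam hi as in pB2. These intervals cover counting error only. For Col4a1 the fitted log2 fold changes against pB2 were 8.45 ± 0.39 for 687g, 8.86 ± 0.39 for pB3 and 8.87 ± 0.39 for Epcam hi (adjusted p = 6.80e-10, 7.70e-10 and 6.15e-10). For Col4a2 they were 7.98 ± 0.35 for 687g, 8.54 ± 0.35 for pB3 and 8.30 ± 0.35 for Epcam hi (adjusted p = 4.23e-10, 4.31e-10 and 3.82e-10).

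Among 687g, pB3 and Epcam hi neither collagen gene was called. For Col4a1 the log2 fold changes were -0.42 ± 0.25 in 687g against Epcam hi, -0.41 ± 0.25 in 687g against pB3 and -0.01 ± 0.24 in pB3 against Epcam hi (adjusted p = 0.202, 0.265 and 0.984). For Col4a2 they were -0.32 ± 0.22 for 687g against Epcam hi, -0.56 ± 0.22 for 687g against pB3 and 0.24 ± 0.22 for pB3 against Epcam hi (adjusted p = 0.275, 0.0798 and 0.459). The values for 687g rest on which of its libraries is used. Without its replicate 1, 687g was called lower than Epcam hi for Col4a1 (-0.88, adjusted p = 0.00840) and Col4a2 (-0.74, adjusted p = 0.00782), and lower than pB3 for Col4a1 (-0.88, adjusted p = 0.0120) and Col4a2 (-0.99, adjusted p = 0.00230). With all libraries and no filter on low counts, Col4a2 was also called lower in 687g than in pB3 (-0.56, adjusted p = 0.0464).

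The collagen chains kept to a narrow range of ratios where they were expressed. Col4a1 exceeded Col4a2 per kb by 1.49 and 1.41 times in 687g, 1.32 and 1.32 times in pB3, and 1.51 and 1.62 times in Epcam hi, while the few reads of pB2 gave 1.52 and 0.709. With the longest transcript as the length, the ratio was 1.64 and 1.56 in 687g, 1.45 and 1.45 in pB3, and 1.66 and 1.78 in Epcam hi. Col4a5 did not share the profile. This gene, which encodes another type IV collagen chain, had 117 and 87.2 CPM in 687g, 41.5 and 47.1 in pB3, 25.7 and 9.41 in Epcam hi, against 75.8 and 70.0 in pB2. It was thus well expressed in the line that nearly lacked Col4a1 and Col4a2, and per kb of exon its mean there was 10.8 CPM against 0.0880 for Col4a1. The remaining type IV chain genes were nearly absent from pB2 as well. Col4a3 had 2 and 0 reads there, and Col4a4 and Col4a6 had 0 in both libraries.

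Nid1 and Hspg2, which bind the laminin and collagen networks, were each highest in 687g or pB3. Nid1, whose protein binds the laminin gamma 1 chain (chr13:13437551-13512269), had 44.1 and 26.3 CPM in 687g, 4.71 and 3.04 in pB3, 0.141 and 0.109 in Epcam hi, against 2.89 and 4.35 in pB2. The Epcam hi values are 2 reads in each library. Nid1 exceeded its pB3 level in 687g by 3.18 ± 0.32 as a log2 fold change (adjusted p = 5.76e-06), and Epcam hi was below pB2 at -4.81 ± 0.57 (adjusted p = 8.61e-06), while pB3 and pB2 overlapped (0.08 ± 0.34, adjusted p = 0.876). Its reads were 292-fold (exact 95% counting interval 114 to 1075) as frequent in 687g as in Epcam hi (log2 fold change 8.07 ± 0.50, adjusted p = 2.09e-08). Nid2, the other nidogen gene, had 0 counts in all 8 libraries.

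Hspg2, the heparan sulfate proteoglycan perlecan (chr4:137468769-137570630), had 217 and 96.6 CPM in 687g, 192 and 196 in pB3, 20.5 and 11.5 in Epcam hi, against 11.8 and 19.1 in pB2. It thus formed 2 levels, with 687g and pB3 at the top and Epcam hi and pB2 overlapping at the bottom. At the top, replicate 1 of 687g lay above both pB3 libraries and replicate 2 below both. Of 4 mesenchymal marker genes, 3 had the same high and low lines: Vim, with the values given above, Zeb1, at 45.5 CPM in 687g, 27.5 in pB3, 0.696 in Epcam hi and 0.101 in pB2, and Prrx1, at 162 in 687g, 77.7 in pB3, 0.442 in Epcam hi and 0.117 in pB2. The other, Fn1, did not, with 9005 CPM in 687g, 2259 in pB3, 2873.5 in Epcam hi and 214 in pB2. All 4 summed to 7749 to 16399.6 CPM in 687g, 4674 to 4797 in pB3, 2816 to 2987 in Epcam hi and 184 to 273 in pB2, and their part in the Hspg2 levels was not tested. Hspg2 was higher in 687g than in Epcam hi by 3.30 ± 0.37 (adjusted p = 9.63e-06) and in pB3 than in pB2 by 3.64 ± 0.38 (adjusted p = 2.89e-06). Between 687g and pB3 (-0.31 ± 0.34, adjusted p = 0.573) and between Epcam hi and pB2 (0.03 ± 0.36, adjusted p = 0.954) it was not called. Over the alternatives tried, leaving out single libraries included, 687g against pB3 ran from -0.998 to 0.162 on the log2 scale, without a call. Of the 9 genes, it was the 1 not called for a difference between the pairs of the same mouse model (-0.34 ± 0.49, adjusted p = 0.637).

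**Figure D3:**
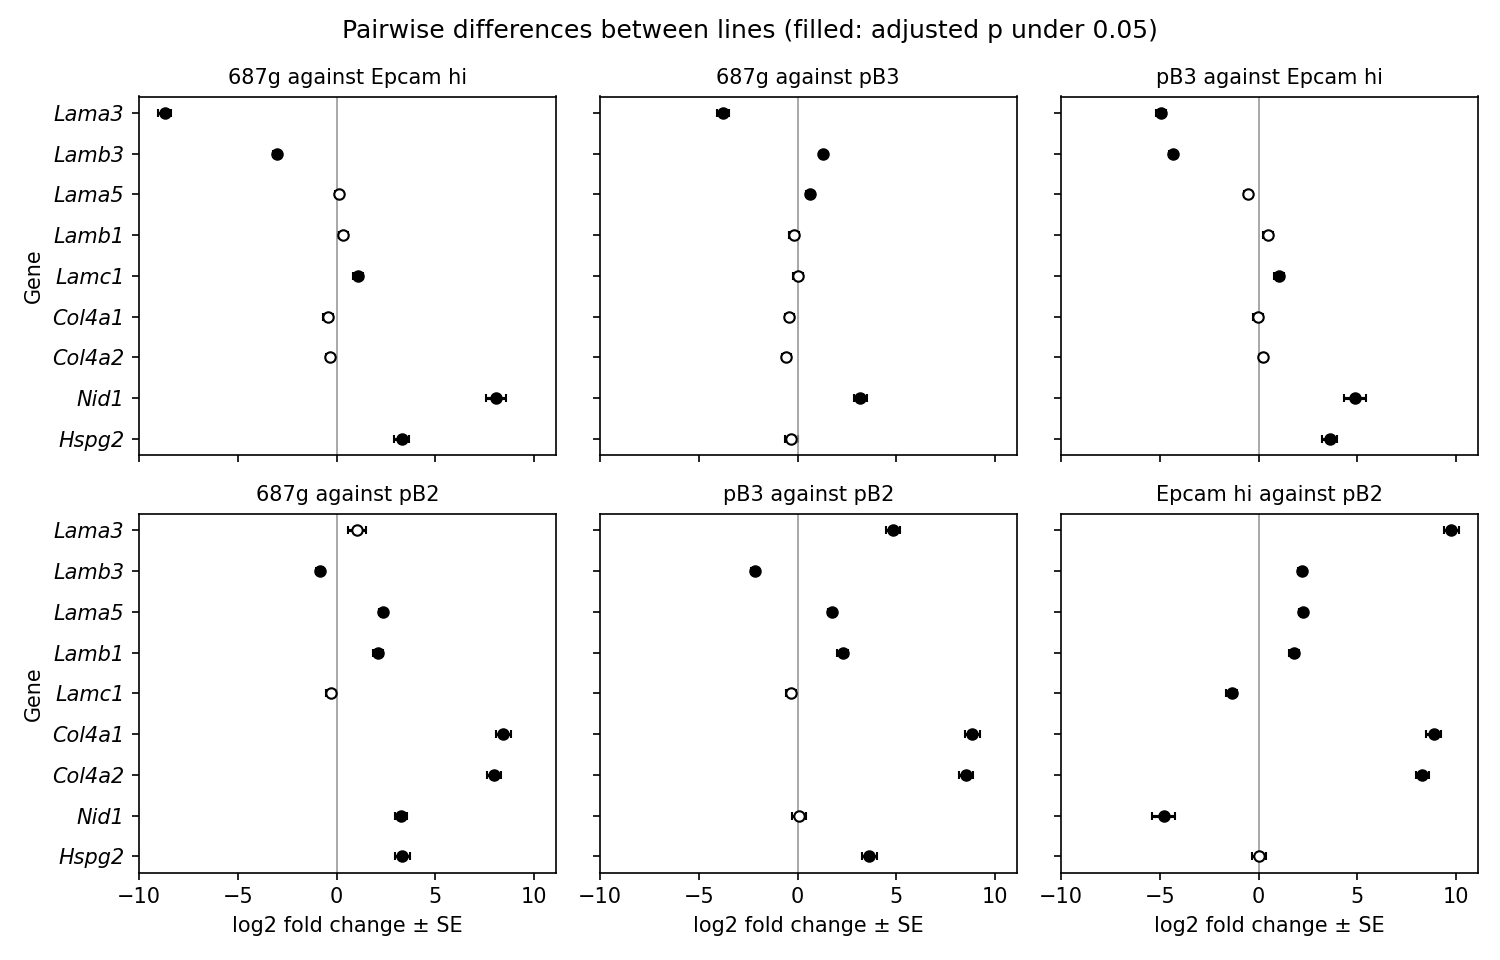
Log2 fold change with its standard error (x axis) of the 9 genes (rows) in the 6 comparisons between lines. Filled points have an adjusted p under 0.05; Col4a1 and Col4a2 lie between 7.98 and 8.87 in the comparisons with pB2 and between -0.56 and 0.24 in the others.

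Counted over the 9 genes, all of which passed the filter on low counts, the comparisons with pB2 held the most calls. In 687g against pB2, 6 were higher and 1 lower, where 52.3% of all 15890 genes tested were called, 25.6% higher and 26.7% lower. In pB3 against pB2, 6 were higher and 1 lower, against 44.8% of all genes called, 21.6% higher and 23.2% lower. In Epcam hi against pB2, 6 were higher and 2 lower, against 51.4%, 25.8% higher and 25.6% lower. The median log2 fold changes of the 9 genes were 2.34, 2.29 and 2.18 in these comparisons, against 0.03, 0.02 and 0.06 over all genes tested. They share the pB2 libraries and are not independent of each other.

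Among the other 3 lines fewer were called. In 687g against Epcam hi, 3 were higher (Lamc1, Nid1 and Hspg2) and 2 lower (Lama3 and Lamb3), against 36.4% of all genes called, 18.4% higher and 18.0% lower, with a median of 0.10 beside -0.03 over all genes. In pB3 against Epcam hi the same 3 were higher and the same 2 lower, against 29.4% of all genes called, 14.8% higher and 14.6% lower, with a median of 0.24 beside -0.04 (the Epcam hi libraries serve in both comparisons); Lama5 and Lamb1 were added under the settings named above. In 687g against pB3, 3 were higher (Lamb3, Lama5 and Nid1) and 1 lower (Lama3), against 25.8% of all genes called, 12.8% higher and 12.9% lower, with a median of -0.18 beside 0.00.

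The lines of the 2 mouse models did not differ in the same way within their pairs. For the difference between them (687g against Epcam hi minus pB3 against pB2), 2 of the 9 genes were called higher and 6 lower, against 37.7% of all genes called, 18.2% higher and 19.5% lower, with a median of -1.63 beside -0.07. Of the 6, Lamb3 (-0.87 ± 0.25, adjusted p = 0.0143) lost its call without pB3 replicate 1 (adjusted p = 0.116), pB3 replicate 2 (adjusted p = 0.0613) or pB2 replicate 1 (adjusted p = 0.106). Lama3 had the largest, at -13.53 ± 0.47 (adjusted p = 1.76e-10): it was lower in 687g than in Epcam hi and higher in pB3 than in pB2. Col4a1 and Col4a2 followed at -9.28 ± 0.46 and -8.86 ± 0.41 (adjusted p = 2.69e-09 and 1.54e-09), and Nid1 at 7.99 ± 0.63 (adjusted p = 2.58e-07). Lamb3 fell in both pairs, at -3.04 ± 0.19 in 687g against Epcam hi and -2.17 ± 0.19 in pB3 against pB2 (adjusted p = 2.22e-08 and 4.47e-07). Hspg2 rose in both, with the values given above.

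The other laminin and type IV collagen chains were 10 genes, of which 7 were tested. In 687g against Epcam hi, 2 were higher and 2 lower (median -1.42), against 18.4% and 18.0% of all genes. Among the higher was Col4a5 at 2.55 ± 0.34 (adjusted p = 4.92e-05). In pB3 against pB2, 5 were higher and 1 lower, against 21.6% and 23.2% of all genes. The median was 2.47, the same with genes absent from a line held at their bound. Col4a6, which encodes a partner chain of Col4a5, had 345 reads in pB3 and 0 in pB2, which makes it at least 123-fold higher when pB2 is set to 3 counts for the line. Lama4 was lower in pB3 at -8.03 ± 0.40 (adjusted p = 2.35e-09).

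Of 17 other basement membrane components, 15 were tested. In 687g against Epcam hi, 6 were higher and 2 lower, against 18.4% and 18.0% of all genes. The median was 0.68, or 0.59 without genes at or under the floor in both lines. Smoc2, a calcium-binding matrix protein, had the largest rise in 687g, at 10.07 ± 0.46 (adjusted p = 1.39e-09), and agrin (Agrn), a heparan sulfate proteoglycan, fell at -2.25 ± 0.21 (adjusted p = 1.31e-06). In pB3 against pB2, 8 were higher and 4 lower, against 21.6% and 23.2% of all genes (median 2.22, 2.40 with genes at their bound). Sparc, which binds type IV collagen, was at 1290 CPM in pB3 and 9.67 in pB2 (7.06 ± 0.42, adjusted p = 1.08e-08), and Smoc1 was lower in pB3 at -7.16 ± 0.33 (adjusted p = 1.20e-09).

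Hemidesmosome and laminin receptor genes were 9, of which 8 were tested. In 687g against Epcam hi, 0 were higher and 3 lower, against 18.4% and 18.0% of all genes (median -0.19). In pB3 against pB2, 5 were higher and 2 lower, against 21.6% and 23.2% of all genes (median 1.18). Itgb4, the integrin beta chain of hemidesmosomes that binds laminin-332, was lower in 687g than in Epcam hi at -3.04 ± 0.29 (adjusted p = 1.54e-06). Itga3, an integrin alpha chain for laminins, was higher in pB3 than in pB2 at 4.59 ± 0.23 (adjusted p = 2.31e-09). Bcam, a receptor for the laminin alpha 5 chain, was lower in pB3 than in pB2 at -2.85 ± 0.37 (adjusted p = 2.27e-05).

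The genes for folding, modification and cross-linking of collagen were 21, all tested. In 687g against Epcam hi, 9 were higher and 3 lower, against 18.4% and 18.0% of all genes. The median was 0.27, or 0.36 without genes at or under the floor in both lines. In pB3 against pB2, 10 were higher and 5 lower, against 21.6% and 23.2% of all genes (median 0.56). Serpinh1, the collagen chaperone HSP47, had 1.50 CPM in 687g, 36.5 in pB3, 106 in Epcam hi and 559 in pB2. It was thus lowest in 687g, which expressed Col4a1 and Col4a2, and highest in pB2, which nearly lacked both. The log2 fold change of Serpinh1 in 687g against Epcam hi was -6.18 ± 0.37 (adjusted p = 1.65e-08). Loxl3, a lysyl oxidase-like cross-linking enzyme, was higher in 687g than in Epcam hi by 3.23 ± 0.29 (adjusted p = 7.96e-07). Its relative Loxl1 had 548 reads in pB3 and 0 in pB2, at least 195-fold higher by the same limit, and P3h2, a prolyl 3-hydroxylase, was lower in pB3 at -5.67 ± 0.32 (adjusted p = 6.02e-09).

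The genes of glycan assembly had median changes closer to 0 in pB3 against pB2 than the lists above. Of 17 heparan sulfate genes, 14 were tested. In 687g against Epcam hi, 6 were higher and 2 lower, against 18.4% and 18.0% of all genes (median 0.40). In pB3 against pB2, 5 were higher and 3 lower, against 21.6% and 23.2% of all genes (median 0.19). Sulf2, which trims sulfate from these chains, was higher in 687g by 2.33 ± 0.27 (adjusted p = 1.01e-05), and the sulfotransferase gene Hs6st1 was lower in pB3 at -1.99 ± 0.20 (adjusted p = 2.64e-06). Changes the other way were smaller, with the sulfotransferase gene Hs2st1 at -0.55 ± 0.17 in 687g against Epcam hi and the linker enzyme gene B4galt7 at 1.34 ± 0.19 in pB3 against pB2 (adjusted p = 0.0205 and 4.58e-05). Of 12 genes for the laminin-binding glycan of dystroglycan, all tested, 3 were higher and 3 lower in each of these pairs (medians -0.02 and -0.16). The share called was thus 50%, against 36.4% of all genes in 687g against Epcam hi and 44.8% in pB3 against pB2. Large2, a glycosyltransferase of that glycan, was lower in pB3 than in pB2 at -4.25 ± 0.32 (adjusted p = 1.24e-07), while Pomt1, which starts the glycan, was at 0.82 ± 0.21 (adjusted p = 0.00578). In 687g against Epcam hi, the kinase Pomk was at -0.89 ± 0.21 (adjusted p = 0.00412).

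**Figure D4:**
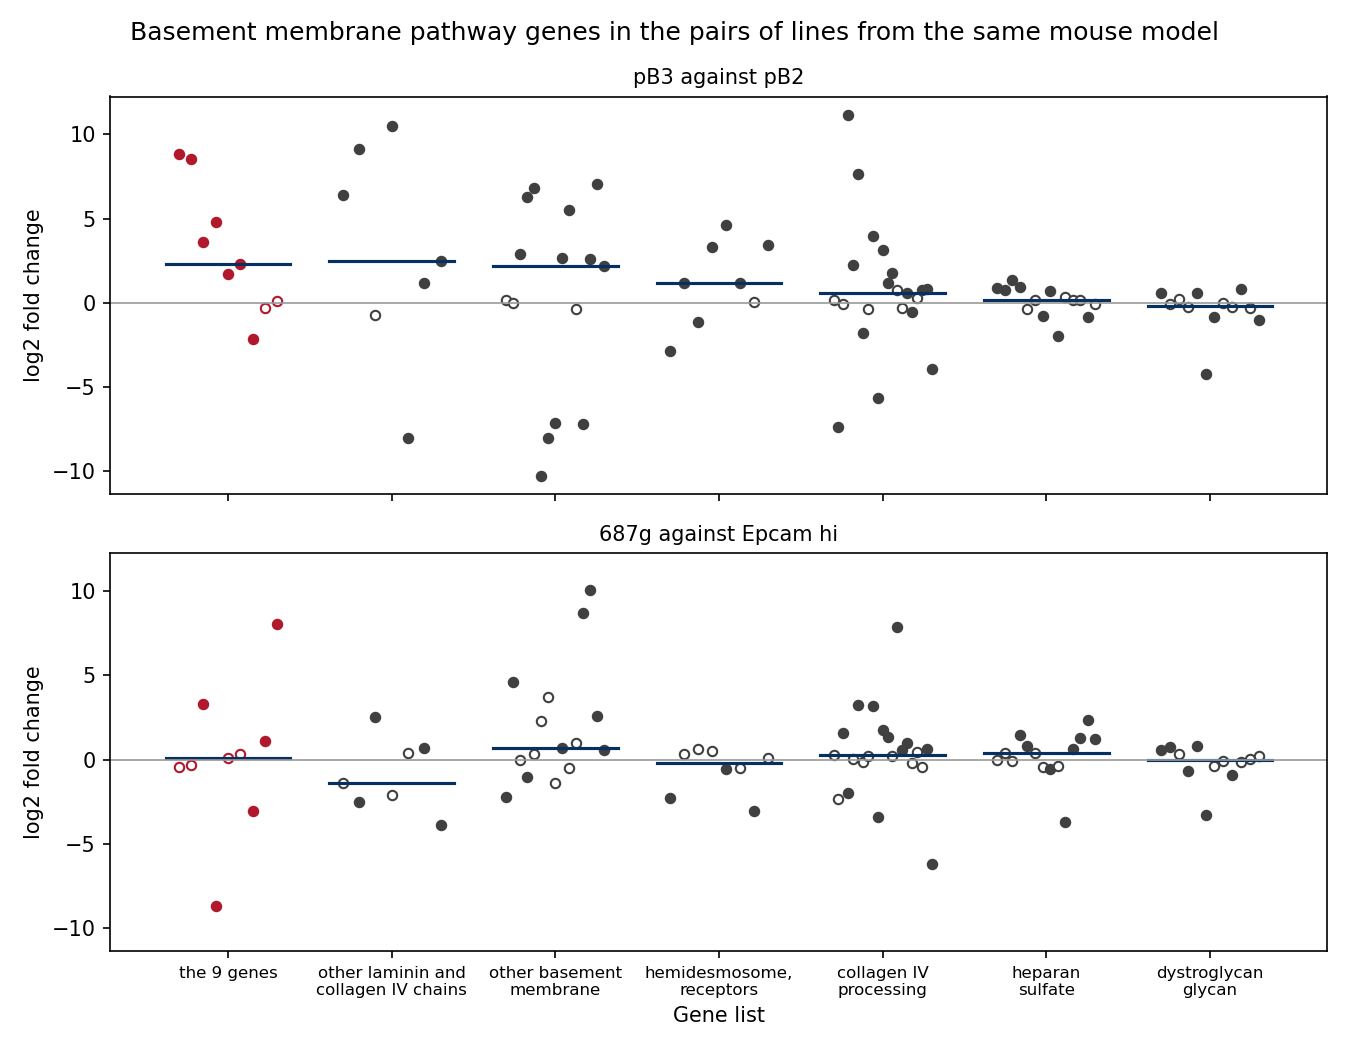
Log2 fold changes of the 9 genes (red) and of the tested genes of 6 pathway lists (grey), in pB3 against pB2 (top) and 687g against Epcam hi (bottom). Filled points have an adjusted p under 0.05 and bars are medians, which for the 9 genes are 2.29 and 0.10.

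The genes whose profiles lay nearest were ranked for each of the 9 by Euclidean distance between mean-centred log2 CPM over the 8 libraries, among 10290 tested genes of at least 10 CPM in 1 line. Col4a1 and Col4a2 were 0.93 log2 units apart. Only 1 gene lay nearer to Col4a1 than Col4a2 did: Flnc (filamin C), at 0.47, with 157 CPM in 687g, 188 in pB3, 225 in Epcam hi and 0.540 in pB2. The nearest gene to Col4a2 was Fosl1, an AP-1 subunit, at 0.71, with 40.5 CPM in 687g, 69.8 in pB3, 46.6 in Epcam hi and 0.117 in pB2. Nearest to Lama3 were Gpa33 at 1.92, with 0.458 CPM in 687g, 4.91 in pB3, 82.5 in Epcam hi and 0.0636 in pB2, and S100a14 at 2.08.

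For the other 6 genes the nearest profiles were those of Tspan13 for Lamb3 (1.36), Pkn3 for Lama5 (0.39), Src for Lamb1 (0.32), Ssbp3 for Lamc1 (0.32), Ncmap for Nid1 (1.19) and Efemp2 for Hspg2 (1.06). The third nearest to Lama5 was P4ha2, a collagen prolyl hydroxylase subunit (0.46), and the second nearest to Hspg2 was Pcolce, a procollagen processing enhancer (1.07). These distances are descriptions over 8 libraries of 4 lines, and a short distance to a gene with a small range is easier to reach than to one with a large range.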

How the data were processed

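Per the series' design text and the submitters' processing notes, single-end reads were aligned with STAR 2.6.1a to GRCm38 with an Ensembl annotation and counted per gene with featureCounts in reverse-stranded mode. How it treated reads that map to several genes is not given in the sources used here. The files the authors deposited hold raw counts, 1 column per library, for the same 53379 gene IDs, of which 53274 had a symbol in GENCODE M21. Every row carries a gene ID.

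The test was edgeR's quasi-likelihood F test (edgeR 4.0.16, R 4.3.3) with filterByExpr by line (15890 genes kept), TMM factors, all 8 libraries in the fit by line, and Benjamini-Hochberg adjustment over all genes tested; genes under 0.05 were called. The standard error is the size of the log2 fold change divided by the square root of F. Levels per kb use the union of exons. The main fit did not pair libraries by replicate number, and the labels do not say whether libraries of the same number were prepared together. The other settings tried were RLE factors, total counts, 2 other filters, DESeq2 1.42.0, limma-voom (limma 3.58.1), fits of only the lines compared, a replicate block and leaving out each library. The script was tested on simulated data. The text names the 9 genes, the called gene with the largest fold each way of each list in pB3 against pB2 and 687g against Epcam hi (at least 10 CPM in the higher line), and from the 3 nearest profiles of each gene those printed; Epcam, Vim and Cdh1 check the line names, and Nid2 and the values of Lama4, Col4a5 and Serpinh1 beyond that rule were chosen after they were seen. The 9 genes and the lists were chosen with earlier results of these data known. Some genes under the naming rule are not reported here.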

Additional observations from a re-analysis of the deposited data

Results flagged for a closer look

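For 8 of the 9 genes, the difference between 687g and Epcam hi differed from that between pB3 and pB2 by the test of the difference itself (edgeR, adjusted p between 1.76e-10 and 0.0143). On the log2 scale, as the first minus the second, the values were -13.53 for Lama3, -9.28 for Col4a1, -8.86 for Col4a2, -1.97 for Lamb1, -1.63 for Lama5, -0.87 for Lamb3, 1.41 for Lamc1 and 7.99 for Nid1. That of Lamb3 was not called without pB3 replicate 1, pB3 replicate 2 or pB2 replicate 1 (adjusted p = 0.116, 0.0613 and 0.106).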

How the results depend on the processing

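The number of the 9 genes called stayed within 1.5 times its value in all 7 comparisons under every alternative run; the fit of only the lines compared gives no value for the difference between the pairs. Of 999 single values of the 9 genes under alternatives, 976 kept their side of the threshold, 14 gained a call, 9 lost one and 0 changed sign as a call; each gain or loss is given above with its gene. Among the lists, in 687g against Epcam hi the called heparan sulfate genes were 5 (not 8) and dystroglycan glycan genes 3 (not 6) in a fit of only these lines, and with no filter other laminin and collagen chains were 8 (not 4) and receptors 5 (not 3). In pB3 against pB2, leaving out a library took heparan sulfate genes from 8 to as few as 4 and dystroglycan glycan genes from 6 to 3. The number of all genes called in pB3 against Epcam hi, 4666, ran between 2854 and 6103 with 1 library left out, lowest without pB3 replicate 1 (2906 without its replicate 2). In 687g against pB3, 4093, it ran between 2402 and 4991, lowest without pB3 replicate 2 (2474 without its replicate 1). Total counts in place of TMM moved the all-gene median by -0.19 (log2) in pB3 against pB2, with 2766 genes called higher and 4591 lower (3427 and 3689 with TMM), and by -0.23 in 687g against pB2, with 3163 and 5289 (4060 and 4249 with TMM); levels of the 9 genes then moved by -6.97% to 10.4%. Deviations of libraries with the same replicate number had correlations of -0.0982 to 0.173 between lines, highest for Epcam hi and pB2. These values do not tell whether such libraries were handled together. A replicate block left all 63 values of the 9 genes on their side of the threshold, with 6995 genes called in pB3 against pB2 and 5655 in 687g against Epcam hi.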
